A study of Mus musculus with 2 samples.

Results

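Chromatin contacts of middle range that join 2 gene ends were described in hair matrix keratinocytes, epithelial cells low in the follicle that divide and then form the hair shaft and its inner root sheath. The contacts come from Hi-C, in which stretches of DNA that are near each other in the fixed nucleus are joined and then sequenced as pairs. A pixel is a pair of 5 kb bins on 1 chromosome, called by the authors where its contact count stood above its surroundings. A pixel was taken where it was called in both libraries, where the starts of its bins, its anchors, lay 50 to 195 kb apart, and where each anchor had an annotated end of a protein-coding gene in it or within 5 kb. An end is either the start or the finish of a gene. Below, an end is said to lie at a bin, or a bin to have, hold or share it, on this same rule. The end can thus lie up to 5 kb outside the bin. The rule was met by 312 pixels, of 1349 pixels of this span and 1940 pixels of any span called in both libraries. Position and the shared call chose them, so neither is a result.

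The libraries came from sorted primary cells of mice at postnatal day 4.5, fixed with formaldehyde and digested with the Arima enzymes. One genotype was wild type (WT, 1 library) and the other was Tet2/Tet3 DKO, Krt14-Cre (here DKO, 1 library), in which a Cre recombinase driven by the promoter of the basal keratin gene Krt14 deletes Tet2 and Tet3. These genes encode enzymes that oxidise methylated cytosine on the way to its removal. The sources used here do not give the number of mice pooled or whether WT mice carried the Cre. The WT list held 5811 pixels and the DKO list 4872, and the median DKO/WT ratio of the donut expected counts over the 312 pixels was 0.973. With 1 library per genotype no difference has a replicate check, no test was possible, and genotype and library cannot be told apart. Intervals are exact 95% intervals that cover counting error only. Contacts do not measure transcripts, so the labelled cell type and the deletions were not checked by them.

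Gene starts carry the promoter, where transcription begins, and many contacts between starts, or between a start and a distant element, are held by CTCF and cohesin, which extrude and stop loops, or form between active promoters. Gene finishes are the ends of transcription units, and contacts can also join the start and finish of 1 long gene. Most mammalian promoters are rich in the dinucleotide CpG, the site that TET enzymes act on when it is methylated.

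The promoters below lay in or within 5 kb of the anchors at contacts with the most counts. They belong to the 4 highest-ranked contacts whose anchors each had a transcription start of a different gene within 5 kb, with the start nearest to the centre of each bin. The contacts were Rac3 with Rfng, Sema7a with Cyp11a1, Arl4d with Dhx8, and Pmf1 with Sema4a. The windows, from RefSeq on GRCm38.p6, run from 250 bases before to 50 after the start, and lie at Rac3 (chr11:120721218-120721517, plus strand), Rfng (chr11:120784155-120784454, minus strand), Sema7a (chr9:57939862-57940161, plus strand) and Cyp11a1 (chr9:57997774-57998073, plus strand). The others lie at Arl4d (chr11:101665291-101665590, plus strand), Dhx8 (chr11:101732706-101733005, plus strand), Pmf1 (chr3:88410348-88410647, minus strand) and Sema4a (chr3:88461133-88461432, minus strand). The windows of Rfng, Arl4d, Pmf1 and Sema4a lie wholly outside their anchor bins. Capitals mark GC boxes (GGGCGG) and CCAAT boxes (CCAAT) on either strand. Adjacent GC boxes can overlap.
Rac3: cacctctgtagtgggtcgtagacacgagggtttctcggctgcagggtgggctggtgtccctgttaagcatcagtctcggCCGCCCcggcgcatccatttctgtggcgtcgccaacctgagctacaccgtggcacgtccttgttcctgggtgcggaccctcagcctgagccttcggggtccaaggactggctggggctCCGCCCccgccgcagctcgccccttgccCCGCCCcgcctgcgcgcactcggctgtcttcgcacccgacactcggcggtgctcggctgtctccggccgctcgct
Rfng: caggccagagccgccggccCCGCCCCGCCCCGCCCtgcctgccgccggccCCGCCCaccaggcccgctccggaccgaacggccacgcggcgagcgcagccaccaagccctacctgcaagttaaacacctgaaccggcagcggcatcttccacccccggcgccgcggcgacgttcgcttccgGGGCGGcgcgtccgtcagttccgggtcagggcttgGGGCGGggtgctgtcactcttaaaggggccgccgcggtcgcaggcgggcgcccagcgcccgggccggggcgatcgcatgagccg
Sema7a: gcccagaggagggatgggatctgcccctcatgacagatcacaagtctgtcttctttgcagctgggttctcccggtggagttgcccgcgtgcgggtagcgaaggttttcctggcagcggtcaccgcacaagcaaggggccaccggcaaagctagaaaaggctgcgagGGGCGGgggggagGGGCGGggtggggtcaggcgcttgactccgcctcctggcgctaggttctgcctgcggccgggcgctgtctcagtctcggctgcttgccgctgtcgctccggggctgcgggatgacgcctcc
Cyp11a1: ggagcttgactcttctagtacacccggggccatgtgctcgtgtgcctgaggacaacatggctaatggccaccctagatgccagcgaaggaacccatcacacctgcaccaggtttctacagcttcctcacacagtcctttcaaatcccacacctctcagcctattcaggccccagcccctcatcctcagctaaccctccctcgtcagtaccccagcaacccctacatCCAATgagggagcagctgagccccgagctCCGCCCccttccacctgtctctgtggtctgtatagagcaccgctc
Arl4d: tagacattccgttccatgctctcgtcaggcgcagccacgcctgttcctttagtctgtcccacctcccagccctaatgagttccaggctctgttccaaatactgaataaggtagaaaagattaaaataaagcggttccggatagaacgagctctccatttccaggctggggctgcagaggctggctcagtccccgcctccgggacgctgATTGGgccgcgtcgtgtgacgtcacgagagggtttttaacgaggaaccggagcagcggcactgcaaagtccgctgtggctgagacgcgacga
Dhx8: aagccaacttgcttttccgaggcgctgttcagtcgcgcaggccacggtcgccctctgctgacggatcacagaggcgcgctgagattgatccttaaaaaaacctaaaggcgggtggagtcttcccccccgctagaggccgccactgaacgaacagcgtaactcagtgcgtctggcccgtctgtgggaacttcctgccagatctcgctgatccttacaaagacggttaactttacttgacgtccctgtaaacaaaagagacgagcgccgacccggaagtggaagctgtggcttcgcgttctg
Pmf1: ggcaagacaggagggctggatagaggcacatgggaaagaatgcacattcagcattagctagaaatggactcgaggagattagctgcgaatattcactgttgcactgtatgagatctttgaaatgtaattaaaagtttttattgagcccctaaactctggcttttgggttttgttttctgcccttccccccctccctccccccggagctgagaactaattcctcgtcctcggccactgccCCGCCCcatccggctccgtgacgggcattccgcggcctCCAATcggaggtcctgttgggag
Sema4a: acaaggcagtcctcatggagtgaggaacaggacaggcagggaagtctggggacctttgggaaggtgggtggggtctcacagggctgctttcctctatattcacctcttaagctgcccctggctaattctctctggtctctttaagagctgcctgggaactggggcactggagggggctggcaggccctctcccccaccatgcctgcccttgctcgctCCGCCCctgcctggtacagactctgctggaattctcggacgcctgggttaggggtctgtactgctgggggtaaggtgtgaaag

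The partners of a contact did not have to share their base composition. The Rac3 and Rfng windows were both rich in CpG, with 30 and 44 CpG and 3 and 6 GC boxes. The Sema7a window held 23 CpG and that of Cyp11a1 7, the Arl4d and Dhx8 windows 22 and 25, and the Pmf1 and Sema4a windows 12 and 4. Neither the TATA box (TATAAA) nor the core of the CTCF motif, each searched on both strands, was found in these 8 windows.

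The 312 pixels formed 201 separate contacts when pixels within 20 kb at both anchors were joined, of which 129 were single pixels and the largest held 7. They used 510 different bins and touched 565 protein-coding genes, which is 2.58% of 21900. Of the bins, 308 had ends of 1 gene, 176 of 2 genes and 26 of 3 or more, up to 4. Spans leaned to the short side, with a median of 90 kb (quartiles 65 and 125) over the 312 pixels. Of these pixels, 175 spanned 50 to 95 kb, 96 spanned 100 to 145 kb and 41 spanned 150 to 195 kb. The median count was 22 contacts per pixel in WT (12 to 57) and 21 in DKO (13 to 68). Median enrichment, the observed count over the count expected from a donut of surrounding pixels, was 5.00 in WT (quartiles 4.20 and 6.13) and 4.82 in DKO (4.14 and 5.86).

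The contact with the most counts joined a bin with ends of Rac3, Cbr2, Dcxr and Lrrc45 to a bin with ends of Gps1, a COP9 signalosome subunit, and Rfng, a fringe glycosyltransferase that modifies NOTCH receptors (chromosome 11, bins starting at 120720001 and 120775001). It had 57 contacts in WT and 54 in DKO, at 8.09 times expected (6.13 to 10.5) and 8.14 times (6.11 to 10.6). The libraries did not differ there beyond counting error, with a DKO/WT ratio of enrichment of 1.01 (0.680 to 1.49). Trappc9, a subunit of a vesicle tethering complex, and Ago2, the small-RNA guided nuclease, followed on chromosome 15 over 120 kb. That pixel had 57 and 51 contacts, 10.8 times expected in WT (8.15 to 13.9) and 10.9 in DKO (8.14 to 14.4).

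Next came a contact between 2 genes of the Sp zinc-finger family, Sp2 and Sp6, of which Sp6 is known for its part in the growth of hair and teeth. It spanned 50 kb on chromosome 11, the shortest span taken, and had 52 contacts in WT and 55 in DKO (5.39 and 6.15 times expected). The bin of Sp6 also held ends of Lrrc46 and Scrn2. Sema7a, a membrane-anchored semaphorin, met Cyp11a1, the enzyme that starts steroid synthesis, with 53 and 51 contacts (6.72 and 6.76 times expected). Arl4d, a small GTPase, met Dhx8, a splicing helicase, with 54 and 47 contacts (7.66 and 6.27). Pmf1, a kinetochore subunit, and Slc25a44, a mitochondrial carrier, met the semaphorin gene Sema4a with 49 and 40 contacts (7.59 and 6.56). In each of these 6 contacts, and at Cct6a, the DKO/WT interval included 1. At Tmem267, which ranked between Sema7a and Arl4d by counts, it did not, with 35 contacts in WT and 68 in DKO (ratio 3.08, 2.02 to 4.78).

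**Figure D1:**
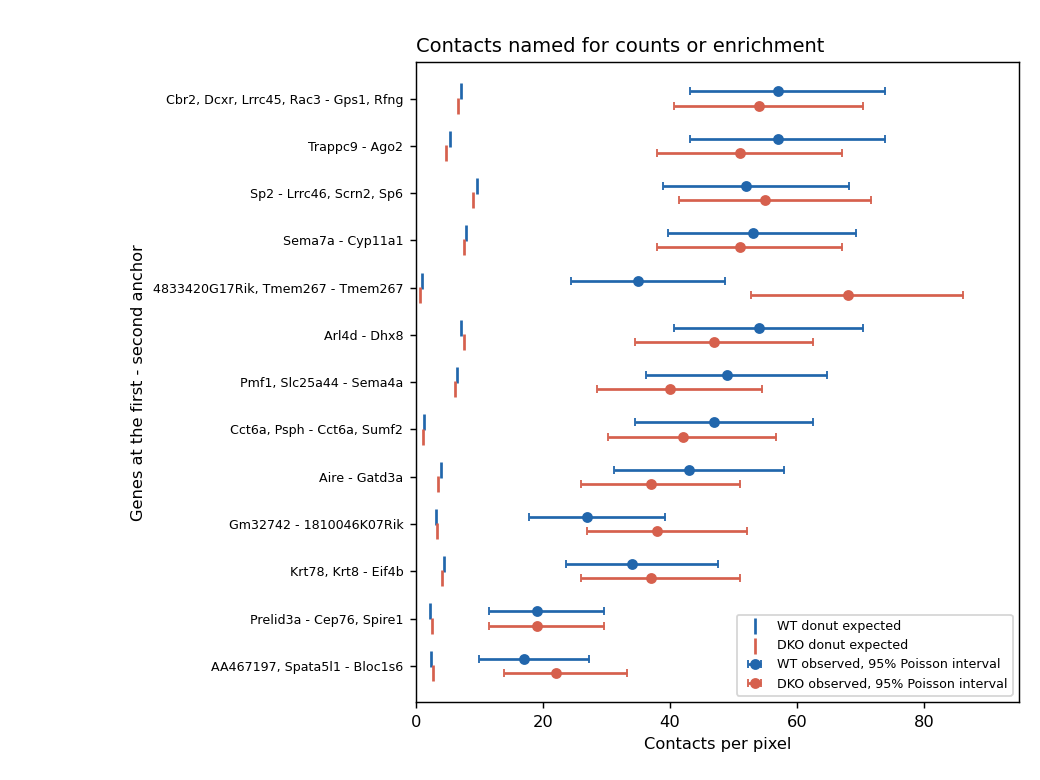
Observed contacts per pixel (points, with exact 95% Poisson intervals) and donut expected counts (ticks) in the WT (blue) and DKO (red) library, for the contacts with the most counts or the highest enrichment in both libraries. Rac3 to Rfng has 57 and 54 contacts over expected counts of 7.04 and 6.64, and only at Tmem267, with 35 and 68, do the 2 intervals of a contact stand apart.

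Among contacts with an expected count of at least 1 in each library, the enrichment was highest at Cct6a, a subunit of the cytosolic chaperonin TRiC. The bins, which also held ends of Psph and Sumf2, lay 60 kb apart on chromosome 5 and had 47 contacts in WT and 42 in DKO. That was 35.9 times expected (26.4 to 47.8) and 36.7 times (26.4 to 49.6), over expected counts of 1.31 and 1.15. Then came Trappc9 with Ago2, and Aire, the regulator of self-antigen expression in the thymus, with Gatd3a, at 43 and 37 contacts (10.8 and 10.4 times expected). Gm32742 with 1810046K07Rik stood at 8.50 and 11.5, Rac3 with Rfng as above, and Prelid3a with Cep76 and Spire1 on chromosome 18 at 8.52 and 7.70. The last, AA467197 and Spata5l1 with Bloc1s6, a subunit of a lysosome-related organelle complex, stood at 7.10 and 8.38. A keratin contact was among these 8. A bin with ends of Krt78 and of Krt8, a keratin of simple epithelia, met Eif4b, a translation initiation factor, over 75 kb on chromosome 15, with 34 and 37 contacts (7.76 and 8.88 times expected).

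A small group stood far above the rest over very low expected counts. The expected count was under 1 in at least 1 library at 11 of the 312 pixels, and 9 of these 11 joined ends of 1 gene. They lay at Tmem267, Cct6a, the intestinal mucin gene Muc2, the anion exchanger gene Slc26a6 with Celsr3 and Uqcrc1, and Snrnp40 with Nkain1. The pixel across Slc26a6 had 21 contacts in WT and 19 in DKO, 61.5 and 52.7 times expected. Over the 301 other pixels, log2 enrichment in the WT and DKO libraries correlated with a Pearson r of 0.707, given as a description. The points share bins, genomic background and the calling step that placed them in both lists.

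**Figure D2:**
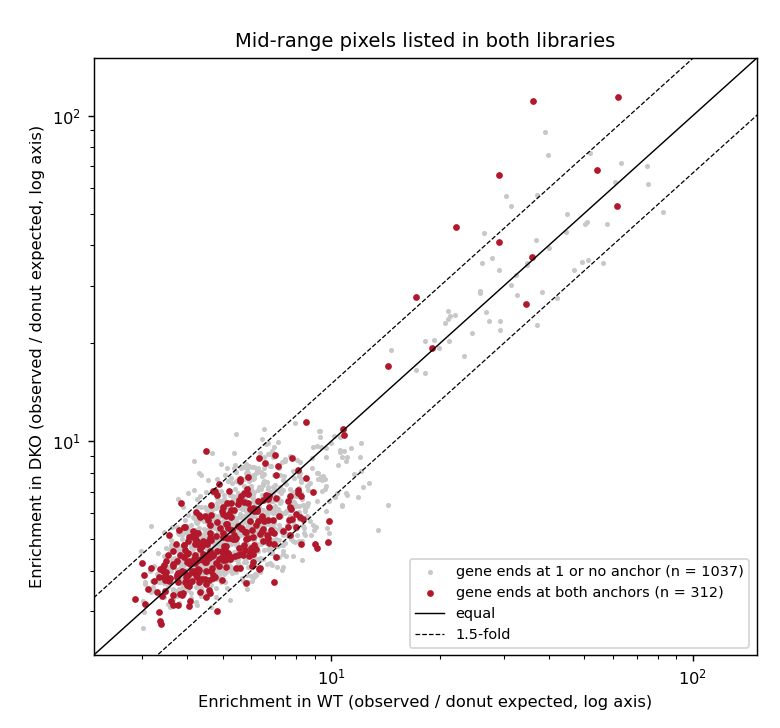
Enrichment (observed over donut expected count) in WT (x) and DKO (y), both on log axes, for every pixel of 50 to 195 kb called in both libraries, with gene ends at both anchors in red and others in grey. Of the 312 red points 8 lie above and 11 below the dashed lines of 1.5-fold difference, and 2 grey pixels lie beyond the axes.

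Both ends of the same gene were joined by 33 pixels in 23 contacts, at 23 genes from 47.7 to 152 kb long. Tmem267 and Cct6a had the most counts. Next was Nxn, which encodes nucleoredoxin, a regulator of WNT signalling through Dishevelled, whose ends met over 150 kb on chromosome 11 with 32 contacts in WT and 31 in DKO (6.45 and 5.89 times expected). Itgb5, an integrin subunit, had 34 and 21 contacts between its ends at the higher of its 2 pixels (7.80 and 5.77). Arid1a, a subunit of the BAF chromatin remodeller, had 20 and 17 (3.82 and 3.40). Median enrichment over the 33 pixels was 5.73 in WT and 5.63 in DKO, against 4.93 and 4.80 at the 279 pixels of different genes. The upper quartiles of the 33 pixels, 18.9 and 26.4, carry the pixels with expected counts under 1. Itgb5 and Arid1a were chosen after their values were seen.

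Between the anchors lay a median of 1 whole protein-coding gene and at most 7. No gene lay between at 95 pixels, 1 or 2 at 161, and 3 or more at 56. The pixels that passed over 3 or more genes had a median enrichment of 4.80 in WT and 4.82 in DKO at a median span of 102.5 kb, and those with no gene between 4.72 and 4.54 at 80 kb. The 10 bins in 3 or more pixels each had all of them within 1 joined contact. The bin used most often, in 4 pixels, held ends of Atp6v1g2, a subunit of the vacuolar proton pump, and Nfkbil1 on chromosome 17. With the next bin it formed the largest contact, 7 pixels to Aif1, Lst1 and Prrc2a within the major histocompatibility region, with 233 contacts in WT and 240 in DKO in all. Bins in 3 pixels each included those of Aire, Atox1, a copper chaperone, Dok3 with Pdlim7, and 4833420G17Rik with Tmem267.

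The spans at the edges of the range were also set side by side. Of pixels with gene ends at both anchors, 29 spanned 50 kb, just inside, and 32 spanned 45 kb, just outside, with median enrichments of 3.99 and 3.93 in WT. At the upper edge 1 pixel spanned 195 kb and 2 spanned 200 kb. For the distance to the gene, 25 pixels had their farther gene end in the last 1 kb inside the limit (median 4.83 in WT, 4.81 in DKO). The 42 pixels in the first 1 kb outside had medians of 5.27 and 5.74.

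The strand of a gene, which tells its start from its finish, came from the promoter table, which held 17492 of the 21900 genes and none of chromosome 18. A gene start lay at 288 of the 510 bins (56.5%), only a finish at 124 (24.3%), and 98 could not be determined. Starts lay at both anchors of 118 of the 312 pixels (37.8%), a start faced a finish at 83 (26.6%), and 25 joined finishes alone (8.01%). Of the pixels with gene ends at both anchors that were called in 1 library only, starts lay at both anchors in 41.1% of 627 WT pixels and 48.1% of 547 DKO pixels. Pixels between starts had a median enrichment of 4.99 in WT and 4.72 in DKO, start with finish 5.26 and 4.90, and finish with finish 4.52 and 4.94. These medians differ by less than the distance between their quartiles. Where the strand of each anchor was clear and the genes differed, 58 of 109 pixels joined genes read in the same direction, 34 genes that diverged and 17 genes that faced each other. In pixels called in WT alone the last 2 classes were 45 and 46 of 212, and in DKO alone 54 and 52 of 203.

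Promoters at these contacts were richer in CpG than those of the gene table as a whole. The 261 genes with a transcription start within 5 kb of an anchor had a median of 21 CpG in 300 bases and a ratio of observed to expected CpG of 0.730 (quartiles 0.520 and 0.904). Over all 17492 protein-coding genes with a promoter in the table the medians were 13 and 0.577 (0.220 and 0.829). The ratio was above 0.6 in 68.6% of the former and 48.4% of the latter. Starts at contacts of the same span with a gene end at only 1 anchor (223 genes) had medians near the former, with 20 CpG and 0.716. Their share above 0.6, 60.1%, lay between the other 2 shares. GC boxes were found in 65.9% of the 261 windows (46.3% of all), CCAAT boxes in 37.5% (39.2%) and TATA boxes in 7.28% (13.3%). With a gene end at only 1 anchor these shares were 58.7%, 36.3% and 10.3%.

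**Figure D3:**
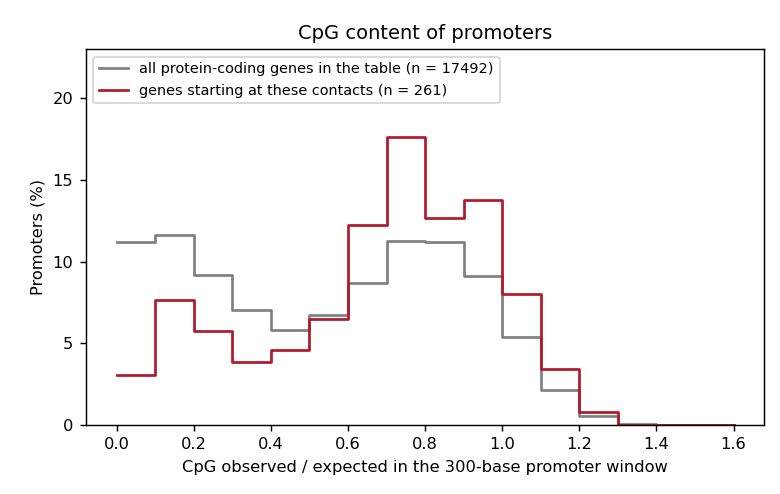
Share of promoters (y, percent) by their ratio of observed to expected CpG in 300 bases (x, steps of 0.1), for genes with a transcription start at the contacts joining 2 gene ends (red, 261) and for all protein-coding genes in the promoter table (grey, 17492). The red line is lower below 0.6 and higher from 0.6 to 1.3.

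Only promoter windows were searched for the CTCF core, and the rest of the anchor bins was not. The letters of the core, on either strand, were in 8 of the 261 windows (3.07%) and in 2.32% of all windows. With a gene end at only 1 anchor they were in 1.79%. They are shown because CTCF is the best known loop anchor protein, for the 3 windows at Aplp2 (chr9:31211987-31212016), Ube2l3 (chr16:17201443-17201463) and Uqcrc1 (chr9:108936607-108936636), chosen after their values were seen. Capitals mark the core (12 letters, of which 8 were fixed), and each line runs in the direction of its gene.
Aplp2: ggggcggggCCACGAGGGGGCacgcgctgg
Ube2l3: agatggcggCCAGCAGGAGGC
Uqcrc1: acttgctgcCCAACAGGGGGCgactgagca

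A match is a description of letters and says nothing of binding. The match at Uqcrc1 lay outside its anchor bin. Aplp2, a relative of the amyloid precursor gene, met Prdm10 and Gm7244 with 25 contacts in WT and 27 in DKO (3.57 and 3.81 times expected). Ube2l3, a ubiquitin-conjugating enzyme, met Pi4ka and Tmem191c with 21 and 24 (4.12 and 5.13). Uqcrc1, a core subunit of respiratory complex III, met Celsr3 and Slc26a6 with 12 and 14 (14.4 and 17.1).

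Gene lists of the follicle were read against the 2.58% of all protein-coding genes that lay at these contacts. Of 37 hair follicle transcription factors 4 did (10.8%), and all 4 were at single pixels of 19 to 30 contacts per library. Cux1, a factor of the inner root sheath lineage, met Prkrip1 (29 contacts in WT and 21 in DKO, 5.97 and 5.69 times expected). Its bin also held an end of Sh2b2, the only gene with a start assigned there. Foxn1, the factor mutated in nude mice, shared a bin with Unc119 and met Slc13a2 by their finishes (19 and 20 contacts, 3.48 and 3.82). Nfatc1, known for the quiescence of follicle stem cells, met Atp9b (19 in each, 3.90 and 4.81). Id1, an inhibitor of helix-loop-helix factors and a BMP target, met Mcts2 (23 and 30 contacts, 2.86 and 3.27). The Id1 pixel had the lowest WT enrichment of the 312, over the high expected counts of 8.05 and 9.18 of a 50 kb span.

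The list of terminal differentiation and desmosomes had 3 of 41 genes here (7.32%). Pkp1, a desmosomal plaque protein, met Igfn1 with 38 contacts in WT and 28 in DKO (6.70 and 5.05 times expected). Padi3, the deiminase known for modifying trichohyalin in the hair, met Padi2 of the same family over 115 kb with 28 and 23 contacts (5.69 and 4.48). Of 16 epidermal keratins there were 2, Krt8 and Krt78 of the contact with Eif4b, and of 22 inner root sheath and hair keratins none. The WNT list had 1 of 43 members, Lgr6, a receptor of R-spondins, whose 2 ends met with 22 and 25 contacts (4.83 and 5.63). Wnt9a, a WNT ligand gene that was not on the list, met Zkscan17 over 180 kb with 26 and 21 contacts (6.72 and 6.28). The BMP, SHH, NOTCH and FGF list had 1 of 43, Fgfr3. It shared a bin with Letm1 and met Tacc3, with finishes alone at both anchors (28 and 25 contacts, 3.64 and 3.36). The cell cycle list had 1 of 41, the spindle checkpoint kinase Bub1b, which met Ankrd63 and Pak6 (19 and 26 contacts, 3.57 and 5.14).

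None of 24 DNA methylation genes was at such a contact, and of 20 CTCF and cohesin genes there was 1, the testis paralogue Ctcfl, which met Rae1 and Spo11 with 15 and 17 contacts (4.71 and 7.04). Markers of other cells the sort could hold were absent as well, with 0 of 12 for melanocytes, 0 of 18 for dermal papilla and fibroblasts and 0 of 18 for immune, endothelial and nerve cells. At 2.58%, lists of 12 or 18 genes would hold less than 1 gene, so these zeros cannot be told apart from the background.

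Among families of broadly expressed genes the shares were 6 of 71 genes with Eif or Eef symbols (8.45%), 6 of 100 respiratory chain and ATP synthase genes (6%), 4 of 69 splicing and hnRNP genes (5.80%), 4 of 78 mitochondrial ribosomal genes (5.13%) and 4 of 101 ribosomal genes (3.96%). The Eif and Eef symbols take in translation factors and kinases of these factors, and Eef2k and Eif2ak4, both kinases, were among the 6. Solute carriers had 16 of 389 (4.11%), genes with Zfp or Zbtb symbols, Zbtb8os among them, 10 of 438 (2.28%) and Hox, Irx, Dlx and Msx genes 2 of 54 (3.70%). Olfactory and vomeronasal receptors had 1 of 1463 (0.0684%), Olfr1393. These are counts with no test, and families whose genes lie close together share their contacts.

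The ribosomal gene with the most counts was Rpl35, which shared a bin with Wdr38 and met Nr6a1 and Olfml2a with 36 contacts in WT and 24 in DKO (6.20 and 4.65 times expected). Rpl19 shared a bin with Cacnb1 and met the F-box gene Fbxl20 with 33 and 21 (4.81 and 3.02). Eef2k, the kinase of elongation factor 2, shared a bin with Gm5737 and met Polr3e, a subunit of RNA polymerase III, with 30 and 35 (6.99 and 9.05). Hnrnpl, a splicing regulator, shared a bin with Rinl and met Lgals7, a lectin of stratified epithelia, with 25 and 33 (2.99 and 4.23). Hoxc8 and Hoxc9 met Smug1, a DNA repair glycosylase, over 185 kb with 34 and 28 (6.63 and 5.17). Median log2 DKO/WT enrichment was 0.36 at the 4 pixels of the splicing list, -0.23 at the 4 of the proteasome list and -0.13 at the 10 of the respiratory list, against -0.02 over all 1940 pixels. Each list rests on few pixels, and no pixel named in this paragraph had an interval that left out a ratio of 1.

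Across the span classes, median enrichment at contacts joining 2 gene ends was at or below that of contacts with a gene end at 1 anchor or at none, with one exception. At 50 to 95 kb it was 4.61 in WT and 4.5 in DKO, against 5.04 and 4.88 with 1 gene end and 5.08 and 5.32 with none. At 100 to 145 kb the values were 5.17 and 5.05, 5.28 and 5.43, and 5.90 and 5.44. At 150 to 195 kb they were 6.06 and 5.48, 6.04 and 6.14, and 6.26 and 5.64, so that in WT the medians with 2 and 1 gene ends were about equal. The quartiles overlapped in every class, as the plot of enrichment by span shows. Donut expected counts moved with this: over all spans their median in WT was 4.60 at the contacts joining 2 gene ends, 4.33 with 1 gene end and 3.82 with none, while observed medians were 22, 22 and 21. With 2 gene ends the WT expected median was 5.14 at 50 to 95 kb and 3.38 at 150 to 195 kb, with observed medians of 23 and 20. Every pixel had passed a call against its expected counts, and how far that call set these differences in enrichment was not tested.

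**Figure D4:**
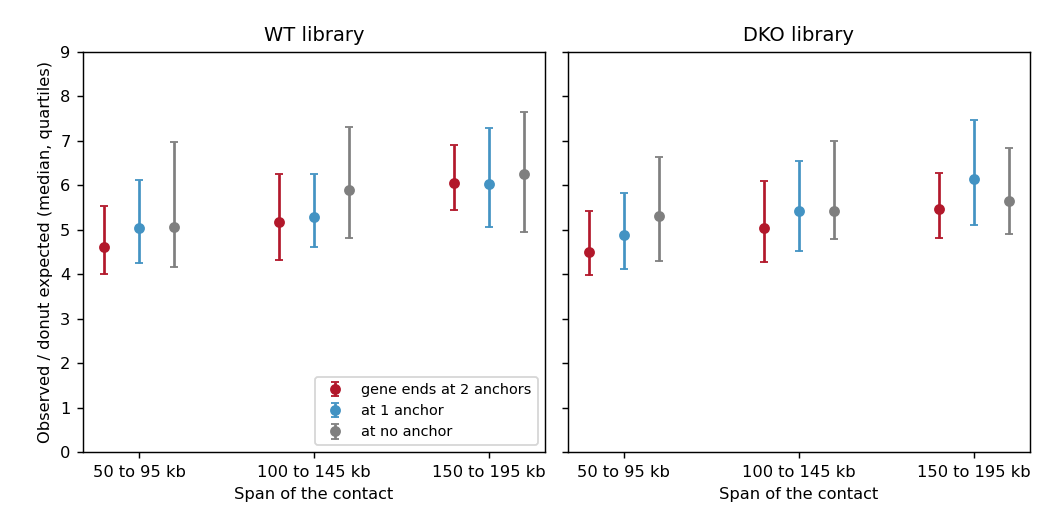
Median enrichment with quartiles (y) by span of the contact (x), in the WT and DKO library, for pixels called in both libraries with gene ends at 2 anchors (red), 1 anchor (blue) or none (grey). Enrichment is higher at longer spans in every class, and the red medians run from 4.61 to 6.06 in WT and from 4.5 to 5.48 in DKO.

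Fewer of the listed pixels with gene ends at both anchors were found in the other library. Over all mid-range pixels, 36.3% of the WT list and 42.7% of the DKO list were also called at the same pixel in the other. For pixels with gene ends at both anchors this was 33.2% of the 939 on the WT list (30.2 to 36.3) and 36.3% of the 859 on the DKO list (33.1 to 39.6). With a gene end at 1 anchor it was 37.8% of 1676 (35.5 to 40.2) and 47.1% of 1345 (44.4 to 49.8), and with none 36.7% of 1098 (33.8 to 39.6) and 42.1% of 957 (39.0 to 45.3). In DKO the interval for 2 gene ends lay below that for 1, and in WT the intervals overlapped.

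Of pixels under 20 contacts with gene ends at both anchors, 19.1% in WT and 24.7% in DKO were in both lists. At 20 or more contacts this class again had the lowest share in each library. Of pixels with 20 or more contacts, 50% of 430 WT pixels with gene ends at both anchors were in both lists (45.2 to 54.8), against 57.3% with 1 (53.7 to 60.8) and 60.4% with none (55.5 to 65.2). In DKO these were 53.3% of 349 (47.9 to 58.6), 67.6% (63.7 to 71.4) and 65% (59.5 to 70.2). With a partner allowed 1 bin away at each anchor the shares rose to 59.7% in WT (56.5 to 62.9) and 59.8% in DKO (56.5 to 63.1) for 2 gene ends, against 68.2% and 74.1% for 1. Neighbouring pixels are not independent, so these intervals are too narrow.

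**Figure D5:**
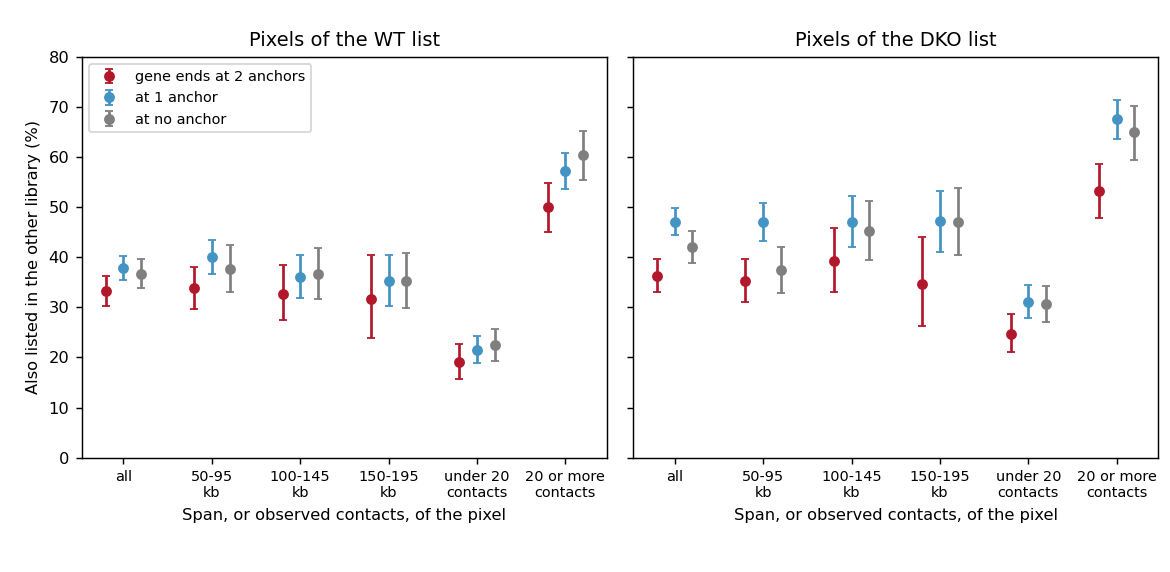
Share of listed pixels also called at the same pixel in the other library (y, percent, with exact 95% intervals), for all mid-range pixels and by span or observed contacts (x), in the WT list (left) and DKO list (right). Pixels with gene ends at 2 anchors (red) are lowest at 20 or more contacts, with 50% in WT and 53.3% in DKO.

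Between the genotypes the contacts joining 2 gene ends were nearly level. The median log2 DKO/WT ratio of enrichment was -0.04 (quartiles -0.24 and 0.20), with 170 of 312 pixels lower and 142 higher in DKO, and over all 1940 shared pixels the median was -0.02 (-0.25 and 0.20). More than 1.5-fold higher in DKO were 8 of the 312 (2.56%) against 3.56% of all shared pixels, and more than 1.5-fold lower 11 (3.53%) against 5.26%. Both shares are below the background. At 60 or more contacts in WT plus DKO, 5 of 47 pixels were more than 1.5-fold higher (10.6%). That compares with 2.41% of 83 with a gene end at 1 anchor and 2.63% of 38 with none. More than 1.5-fold lower were 6.38%, 7.23% and 10.5%. Of the 8 higher pixels 5 lay at Tmem267 and Cct6a, and 3 of the 8 were left where each library had an expected count of at least 1. Among the 41 pixels of 150 to 195 kb, 6 were more than 1.5-fold lower (14.6%) and none higher, with a median of -0.14. At least 2 of these 6 were neighbouring pixels of 1 contact, that of Mrm3 and Nxn with Timm22. The corresponding shares lower were 7.81% of 128 with a gene end at 1 anchor and 10.5% of 105 with none.

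The interval of a single pixel lay above 1 at 4 of the 312, against 11 of all 1940 shared pixels (0.567%). It lay below 1 at 4 of the 312, against 20 of the 1940 (1.03%), with no allowance for the number of pixels. Both shares of the 312 were above the background, unlike those past 1.5-fold, and each rests on 4 pixels. Gmpr2, Nhp2 and Timm22 were named after their values were seen. Of the 4 higher in DKO, 2 were neighbours at Tmem267 on chromosome 13, with 35 contacts in WT and 68 in DKO (ratio 3.08, 2.02 to 4.78) and 37 and 63 (2.25, 1.48 to 3.48). The third pixel of that contact had 21 and 23. With the expected count of the vertical neighbourhood the first 2 ratios became 1.85 and 1.06. At Zbtb8a and Zbtb8os with Bsdc1 on chromosome 4 there were 20 and 41 contacts (2.06, 1.18 to 3.72), while the other 4 pixels of that contact had ratios from 0.765 to 1.03. Gmpr2 and Tinf2, a telomere protein, met Dhrs1 and Nop9 with 29 and 44 (1.68, 1.03 to 2.78), or 1.02 with the horizontal expected count.

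Of the 4 lower in DKO, Adgrf1 and Adgrf5, adhesion G-protein coupled receptors on chromosome 17, stood at 33 contacts in WT and 15 in DKO over 190 kb (0.502, 0.254 to 0.951). Nhp2, a subunit of the small RNPs that guide pseudouridylation, and Rmnd5b met 0610009B22Rik on chromosome 11 with 55 and 27 (0.518, 0.314 to 0.835). The other pixel of that contact stood at 0.915. Mrm3 and Nxn met Timm22, an inner-membrane translocase of mitochondria, at 2 neighbouring pixels with 43 and 25 contacts (0.538, 0.315 to 0.900) and 35 and 22 (0.533, 0.298 to 0.935). The pixels of the same contact that joined the ends of Nxn stood at 0.914 and 0.837. Under each of the 4 neighbourhoods these 4 pixels kept ratios under 0.7. The observed counts are the same in each, with raw DKO/WT ratios from 0.455 to 0.629, so these are not separate checks.

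Where each library had at least 30 contacts, 32 pixels could be ranked by the ratio. After the Tmem267 pixels the highest were Cenpx, Lrrc45 and Rac3 with Gps1 and Rfng (32 and 44 contacts, 1.51, 0.936 to 2.46), a neighbour of the pixel with the most counts, Aif1 with Atp6v1g2 and Nfkbil1 (32 and 45, 1.37, 0.851 to 2.22) and Eef2k with Polr3e (1.30, 0.773 to 2.18). The lowest were another pixel of the Atp6v1g2 contact, at Aif1 and Prrc2a (46 and 33, 0.642, 0.398 to 1.03), and Ccni with Ccng2, which encode cyclins (41 and 34, 0.718, 0.442 to 1.16). Then came the 2 pixels of Arl4d with Dhx8 (0.818 and 0.823) and Scd3 with Scd2, fatty acid desaturases (34 and 31, 0.824). The bin of Ccni also held an end of 2010109A12Rik, and that of Scd3 an end of Pkd2l1. The highest and lowest of this ranking thus held pixels of the same contact, which in sum had 233 contacts in WT and 240 in DKO. With the horizontal and vertical expected counts the Ccni ratio became 1.01 and 1.07. The Arl4d ratios became 1.05 and 1.04 with the vertical count. The other pixels of this ranking stayed on their side of 1 under each neighbourhood with a value. The second pixel of the Eef2k contact stood at 0.826.

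The contacts lay on all autosomes and on neither sex chromosome, and of all 1349 mid-range pixels called in both libraries the X held 0 and the Y 2. Chromosome 11, which is gene-dense, held 53 of the 312 (17.0%), against 14.6% of all mid-range pixels called in both libraries and 7.35% of protein-coding genes. Of the mid-range pixels of an autosome, the share that joined 2 gene ends ran from 4.26% on chromosome 12 (2 of 47) to 36.1% on chromosome 3 (13 of 36), against 23.1% over all chromosomes.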

How the data were processed

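Hi-C was run on 1 WT and 1 DKO library. Per the file headers, juicer_tools 1.22.01 wrote the lists of enriched pixels. Juicer and the build GRCm38 (mm10) are named in the submitters' processing notes. The authors deposited for each pixel the observed contacts as raw counts, 4 expected counts as a signal on the same scale, a score for the class of each expected count, and 4 q-values (FDR), all under 0.1. Aligner, read filters and total read depth: not given in the sources used here.

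Coordinates were made 1-based. Gene ends were read from RefSeq's genes of GRCm38.p6. Strands and promoters came from a RefSeq promoter table with 1 promoter a gene, that nearest to the annotated start. Enrichment is observed over donut expected counts. Intervals were Poisson for counts, Clopper-Pearson for shares and conditional binomial for DKO/WT ratios, with expected counts taken as fixed, and PCR copies are not known. The ratio code was tested on simulated data. Analyses used Python 3.11.15, numpy 2.4.6, pandas 2.3.3 and scipy 1.17.1.

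The contacts, 12 gene lists and 15 gene families were chosen with earlier results of these data known. Contacts named were the 8 with most counts, the 8 with highest enrichment in both libraries, the 5 highest and 5 lowest ratios at 30 or more contacts, up to 4 genes per list, 5 joining ends of 1 gene, the bins used most and the spans at the extremes, of which the text gives those that add a gene. The contact of the longest span is not reported here. Others are said to be chosen after their values were seen. Wnt9a, and the genes given for expected counts under 1 other than Tmem267 and Cct6a, were also named outside these rules. S100 proteins (0 of 19), Krt and Krtap genes (2 of 109), histones (1 of 71, by a symbol pattern that missed H4c8, which shares both pixels of H2ac10), transmembrane Tmem genes (8 of 238) and ubiquitin ligases (3 of 229) were the lists not described. The proteasome list had 2 of 51. Alternatives were other distances to gene ends, FDR under 0.01, minimum counts, other expected counts, autosomes, 1 pixel per contact and matching within 1 bin.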

Additional observations from a re-analysis of the deposited data

How the results depend on the processing

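No paired analysis was possible because there is a single library of each genotype, and nothing was tested. Of 89 values recomputed, 45 lay inside the spread of the value reported (counts: less than 1.5 times away) and 44 outside it. With gene ends inside the bin, 83 pixels at 178 genes and 10 lists were left, and 29.6% of DKO pixels were in both lists. Enrichment was then 4.5 in WT and 4.47 in DKO, and 1 pixel was over 1.5-fold higher and 4 lower. With ends within 10 kb there were 507 at 885 genes, 39.9% of DKO pixels, a DKO enrichment of 5.04, 13 higher and 25 lower, and starts at both anchors in 43.8%. At an FDR under 0.01 there were 123 at 268 genes, with enrichment of 5.82 and 5.70 and 2 lower. At 20 or more contacts in each library there were 165, which were 38.4% of WT and 47.3% of DKO pixels, and 5 lower. With 1 pixel per contact there were 201, shares of 29.2% and 30.9%, and 3 higher, and with an expected count of at least 1 there were 3 higher. Matching within 1 bin gave 561 WT pixels and shares of 59.7% and 59.8%. Enrichment was 4.59 and 4.49 with the bottom-left, 4.21 and 4.20 with the horizontal, 4.12 and 3.92 with the vertical and 3.72 and 3.64 with the highest expected count. The horizontal neighbourhood gave 20 higher and 22 lower and the vertical 19 and 24. The cause of these shifts was not tested beyond the smaller or larger sets that the distances, FDR and count limits make. The median log2 DKO/WT ratio stayed between -0.068 and -0.0051 under all 11 alternatives run for it. The definition of a gene start by the promoter table, chosen after seeing the data, gave starts at both anchors in 34.9%. At a median of 22 contacts in WT and 21 in DKO, a single pixel shows only large differences, and 304 of 312 intervals included a ratio of 1.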

Other observations

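Genes whose symbols share a stem followed by a digit lay at opposite anchors in 7 of the 312 pixels, in 5 contacts, a grouping chosen after seeing the data. Besides Sp2 with Sp6, Padi3 with Padi2, Scd3 with Scd2 and Adgrf1 with Adgrf5, these were the zinc-finger genes Zbtb8a and Zbtb8b on chromosome 4. Their 2 pixels had 22 contacts in WT and 19 in DKO (5.26 and 5.05 times expected) and 24 and 17 (6.87 and 5.26). Counts of the WT and DKO library were within 1.5 times of each other at all 7 pixels but that of Adgrf1 with Adgrf5. A bin of Zbtb8a also held the pixel to Bsdc1 that had 20 contacts in WT and 41 in DKO.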
